A study of Mus musculus with 30 samples.

Results

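The transcription factor genes Erg, Fli1, Ets1, Tal1, Lyl1, Sox7, Sox18, Gata2 and Mef2c were followed across the stroma of the newborn mouse thymus. They were taken by symbol from a table of 18847 genes, in which all 9 were found, and each was read in all 30 libraries. The study asked how blocking vascular endothelial growth factor (VEGF) acts on the cells that surround developing T cells. Mice of both sexes (given as mixed) of the B6.SJL strain were injected on postnatal day 1, and thymi were collected on postnatal day 3, when the labels give an age of 3 days. One set of mice received aflibercept (VEGF-Trap, called Trap here), a soluble fusion of VEGF receptor parts that binds VEGF-A, and the control set received the antibody hFC. No genetic change is named for either set. Thymi were digested, depleted of CD45-bearing cells on magnets and sorted by flow cytometry among cells lacking CD3, CD4, CD8, CD45 and Ter119. The 5 populations were CD31-positive endothelium, EpCAM-positive cortical epithelium with high Ly51 (cTEC), EpCAM-positive medullary epithelium with low or no Ly51 (mTEC), and CD140a-positive and CD146-positive mesenchyme, both sorted from cells lacking EpCAM and CD31. Each population had 2 control libraries and 4 Trap libraries. Neither the number of animals in a library nor whether populations share animals is given in the labels. The p-values therefore reflect the spread among these libraries alone, which may be technical.

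Blood vessel endothelium is specified by a small set of transcription factors that bind next to each other in the enhancers of endothelial genes. ETS factors such as ERG, FLI1 and ETS1 bind there most widely, SOX factors of the F group (SOX7, SOX17 and SOX18) act in vessel formation and arterial fate, and TAL1, LYL1 and GATA2 join LMO2 and LDB1 in complexes that also drive blood cell genes. MEF2C is a MADS-box factor that works downstream of VEGF signalling in endothelium and also in muscle cells. In the thymus, endothelium is the entry gate for T cell progenitors.

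On the GRCm38 build the members lie on 8 chromosomes, and each is annotated as protein-coding. Ets1 (chr9:32636221-32757820, plus strand) and Fli1 (chr9:32422204-32542861, minus strand) are neighbours 93.4 kb apart with 0 protein-coding genes between them. Erg (chr16:95359169-95586593, minus strand) has the related factor gene Ets2 as its neighbour at 115.5 kb, again with 0 protein-coding genes between them. The other members are Tal1 (chr4:115056426-115071755, plus strand), Lyl1 (chr8:84701457-84704715, plus strand), Sox7 (chr14:63943673-63950732, plus strand), Sox18 (chr2:181669836-181671640, minus strand), Gata2 (chr6:88193891-88207032, plus strand) and Mef2c (chr13:83504034-83667080, plus strand). Exons of Lyl1 share 4 bases with Nfix on the opposite strand.

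Promoter windows, each the 250 bases before an annotated start, were available for 5 of the 9 members from RefSeq (GRCm38.p6), with 11 windows in all. Fli1, Ets1, Sox7 and Sox18 had none. Because the members' own protein families bind known letters, 4 motifs were searched on both strands: CCGGAA for ETS factors, AGATAA for GATA factors, CAGATG as the E-box of TAL1 and its relatives, and ACAAT for SOX factors. None of these 4 motifs contains another. The 3 windows below are shown because they hold an ETS or a GATA motif, and capitals mark every match to any of the 4.
Erg, start 3, chr16:95459349-95459598, minus strand: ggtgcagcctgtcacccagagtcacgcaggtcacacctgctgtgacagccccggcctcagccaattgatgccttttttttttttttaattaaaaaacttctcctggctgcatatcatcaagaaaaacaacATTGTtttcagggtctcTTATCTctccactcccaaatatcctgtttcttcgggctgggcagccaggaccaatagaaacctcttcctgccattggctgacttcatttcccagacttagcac
Tal1, start 1, chr4:115056176-115056425, plus strand: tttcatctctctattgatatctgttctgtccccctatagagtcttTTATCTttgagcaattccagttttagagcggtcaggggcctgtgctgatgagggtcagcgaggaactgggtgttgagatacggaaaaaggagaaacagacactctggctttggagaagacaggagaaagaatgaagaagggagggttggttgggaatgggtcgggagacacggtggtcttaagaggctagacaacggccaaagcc
Lyl1, chr8:84701207-84701456, plus strand: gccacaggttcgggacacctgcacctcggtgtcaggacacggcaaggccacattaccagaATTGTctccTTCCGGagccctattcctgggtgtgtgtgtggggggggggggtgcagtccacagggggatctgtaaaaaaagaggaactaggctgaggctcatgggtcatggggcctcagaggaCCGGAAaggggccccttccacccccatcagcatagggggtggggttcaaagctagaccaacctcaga
The Erg and Tal1 windows each hold 1 GATA motif, read on the reverse strand as TTATCT, and the Lyl1 window holds 2 ETS motifs, 1 on each strand. Of the 11 windows, 1 held an ETS motif, 2 a GATA motif, 1 an E-box (start 3 of Mef2c) and 3 a SOX motif (the Erg and Lyl1 windows above and start 1 of Mef2c). Over all 32851 windows of the same length, these motifs occurred in 12%, 10%, 14.4% and 27.7%, in that order. A match describes letters only, and the deposited values do not tell which start was used.

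Expression was measured by RNA sequencing and deposited by the authors as FPKM, a fragment number corrected for gene length and library size, so that levels of different genes can be compared per length. FPKM summed to 184608 to 241993 per library, and 10298 to 13661 genes reached 1 FPKM. The number of reads behind these values is unknown. The sum of 12 endothelial markers (among them Pecam1, Cdh5 and Kdr, and none of the members) was 1529 to 1791 FPKM in the endothelial libraries, 32.1 to 45.7 in CD140a-positive, 33.8 to 44.3 in CD146-positive, 9.33 to 13.7 in cTEC and 12.1 to 15.9 in mTEC libraries. The fibroblast, mural, cTEC and mTEC marker lists were each highest in the population sorted for them. Tests are limma's on log2(FPKM + 1) over 16425 genes, with Benjamini-Hochberg adjustment and a threshold of 0.05, and all differences given as log2 values are on this scale, on which changes of weakly expressed genes come out too small.

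All 9 factors were higher in endothelium than in the mean of the other 4 populations, where 17.7% of all genes tested were. The differences in log2 ran from 6.81 ± 0.14 (SE) for Sox18 to 1.21 ± 0.28 for Lyl1, and the members' median was 4.47 beside -0.19 over all genes. The members are known as endothelial factors, so their direction is not independent evidence. In 7 of the 9, the lowest endothelial library exceeded the highest of the 24 others, which held for 3.57% of all genes. The exceptions were Lyl1 and Mef2c.

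**Figure D1:**
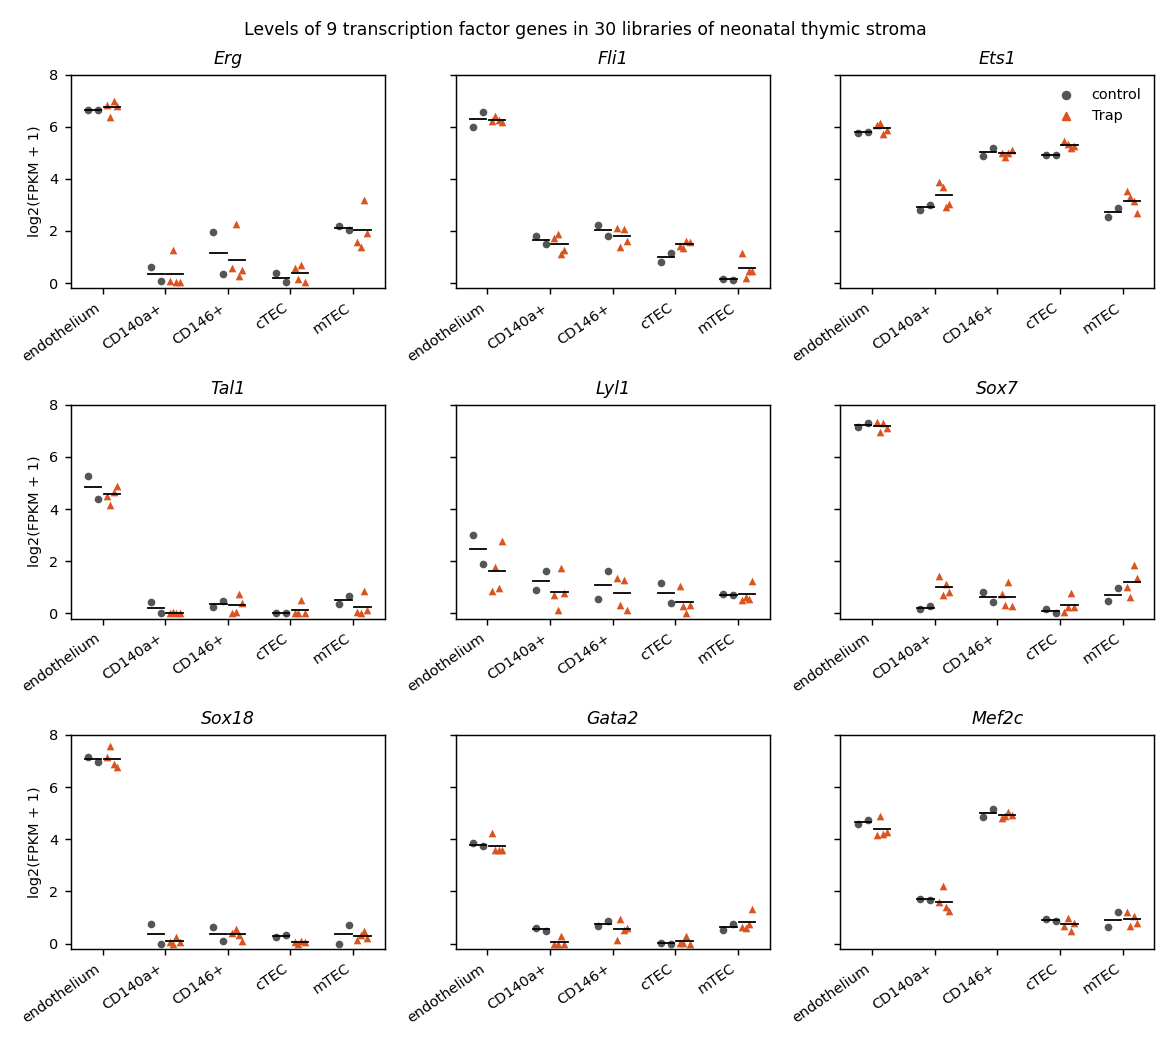
Level of each factor on the log2(FPKM + 1) scale in the 5 sorted populations, with control libraries as circles (n = 2), Trap libraries as triangles (n = 4) and bars at the group means. Erg, Fli1, Tal1, Sox7, Sox18 and Gata2 stand high in endothelium alone, Ets1 is also high in CD146-positive cells and cTEC, and Mef2c is high in both CD146-positive cells and endothelium.

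Among the ETS factors, Erg, which keeps endothelial junctions and identity, was at 98.4 and 98.1 FPKM in the control endothelial libraries and at 113, 82.1, 125 and 111 with Trap. Its other levels were 1.60 to 8.19 in mTEC, 0.21 to 3.81 in CD146-positive, 0.04 to 1.38 in CD140a-positive and 0.02 to 0.64 FPKM in cTEC libraries. Endothelium held 95% of the summed population means of Erg. Its difference in log2 between endothelium and the other 4 was 5.75 ± 0.28 (adjusted p = 1.59e-15).

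The second highest population for Erg was mTEC, at 3.54 ± 2.39 FPKM (SD, n = 6). It exceeded cTEC by 1.77 (log2, adjusted p = 1.78e-04) and CD140a-positive cells by 1.71 (adjusted p = 1.73e-04). The difference of CD146-positive cells minus mTEC was -1.03 (adjusted p = 0.0151), and this call was lost after rescaling to TPM (adjusted p = 0.0533), after quantile normalization (0.135), with only the libraries of those populations (0.056) and without CD146 control replicate 2 (0.18). CD146-positive cells did not pass against CD140a-positive cells (0.164) or cTEC (0.0983), and without that same library they did (0.0374 and 0.0197). Of all genes, 28.3% passed as higher in mTEC than in cTEC and 39.9% as higher in mTEC than in CD140a-positive cells. The mTEC libraries held 12815 to 13661 genes at 1 FPKM, and no other library held more than 11694. Relative to endothelial markers, Erg was higher in mTEC than in endothelium. For each 100 FPKM of the 12 markers, the endothelial libraries held 5.37 to 7.65 FPKM of Erg and the mTEC libraries 11.7 to 51.7. This was not particular to Erg. Gata2 had 0.67 to 1.12 in endothelium and 2.95 to 12.7 in mTEC, and Ets1 2.96 to 4.50 and 34.1 to 79.8. For Sox7 and Fli1 the ranges overlapped, and Sox18 was lower in mTEC. In mTEC, Cdh5 was at 0.13 to 1.39 FPKM and Kdr at 0.03 to 0.53. The mTEC libraries also had the highest median sums of the myeloid markers, at 249 to 398 FPKM, and of the platelet markers, at 6.07 to 27.4 FPKM, and the part of these in the Erg level was not tested.

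Fli1, the ETS factor that shares much of its DNA binding with ERG and also acts in blood cells, was at 62.9 and 93.1 FPKM in control and at 73.5, 83.6, 74.7 and 71.3 in Trap endothelium. The other populations had 1.59 to 3.74 (CD146-positive), 1.14 to 2.71 (CD140a-positive), 0.77 to 2.05 (cTEC) and 0.10 to 1.21 FPKM (mTEC). Here mTEC was the lowest population, and cTEC exceeded mTEC by 0.88 (log2, adjusted p = 4.87e-04). The neighbours in between, CD146-positive against CD140a-positive cells (adjusted p = 0.197) and CD140a-positive cells against cTEC (0.176), did not pass the test, while CD146-positive cells exceeded cTEC by 0.67 (0.00555).

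Ets1, an ETS factor shared with lymphocytes, was the least restricted of the 3 ETS members by share, with 41.6% of its summed population means in endothelium. It was at 53.0 and 54.9 FPKM in control and at 66.3, 68.8, 52.2 and 58.1 in Trap endothelium. The cTEC libraries followed at 29.3 and 28.8 (control) and 42.6, 39.1, 35.7 and 36.8 (Trap), and the CD146-positive libraries at 27.6 to 35.2 FPKM. Endothelium exceeded cTEC by 0.76 ± 0.16 (log2, SE, adjusted p = 2.34e-04) and CD146-positive cells by 0.86 ± 0.16 (7.29e-05). The cTEC and CD146-positive levels did not differ beyond their spread (difference of CD146-positive minus cTEC -0.10, adjusted p = 0.677, with the sign turned by rescaling to TPM and by quantile normalization), and both exceeded CD140a-positive cells (by 1.96 and 1.86 in log2) and mTEC (by 2.16 and 2.07), with adjusted p = 3.06e-10 or less. Those lowest levels were 5.97 to 13.9 FPKM in CD140a-positive cells and 4.86 to 10.5 in mTEC (adjusted p = 0.276 between them, with CD140a-positive cells higher under TPM, upper quartile and quantile scaling, the last at adjusted p = 0.00874).

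Thymocytes express Ets1, so their transcripts were read beside it. The sum of 11 thymocyte markers (without Thy1, which fibroblasts share) was 59.3 to 148 FPKM in cTEC libraries, against 1.04 to 6.86 in CD146-positive, 5.33 to 13.2 in endothelial, 3.70 to 10.6 in CD140a-positive and 7.04 to 13.5 in mTEC libraries. The part of thymocyte transcripts in the Ets1 levels of cTEC and the other populations was not tested.

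**Figure D2:**
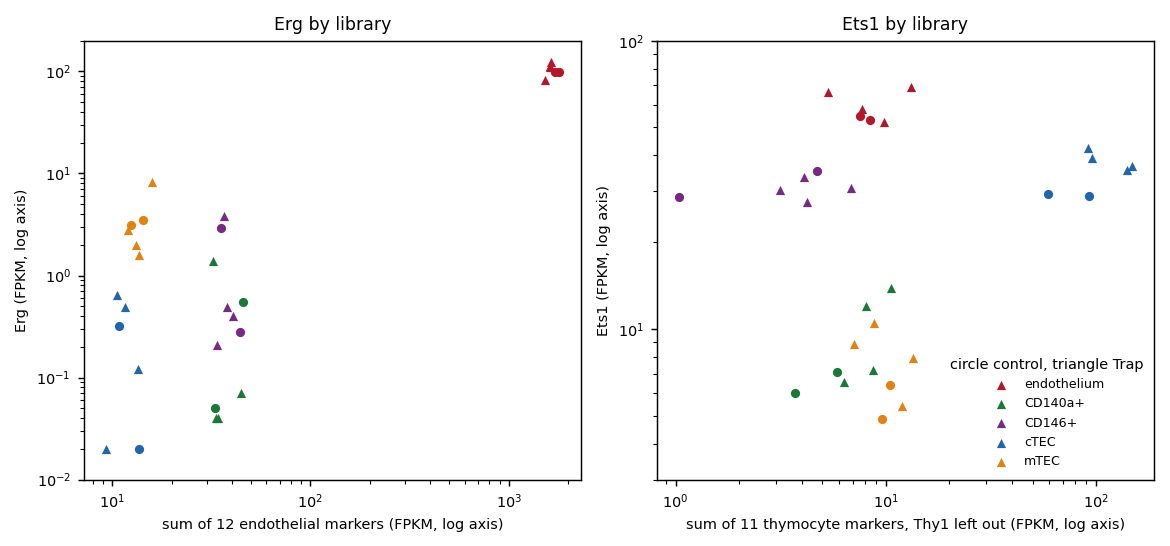
Left, Erg against the sum of 12 endothelial markers, and right, Ets1 against the sum of 11 thymocyte markers, each point 1 of 30 libraries, all axes logarithmic in FPKM. The mTEC libraries lie above cTEC for Erg at marker sums of 12.1 to 15.9 against 9.33 to 13.7, and the CD146-positive libraries hold 27.6 to 35.2 FPKM of Ets1 at thymocyte sums of 1.04 to 6.86.

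Both SOX members were the most restricted factors of the set. Sox7, which acts in early vessel growth, was at 141 and 158 FPKM in control and at 163, 123, 155 and 136 in Trap endothelium, and its highest level elsewhere was 2.59 FPKM in an mTEC library. Sox18, a factor of vessel and lymphatic development, was at 141 and 124 in control and at 141, 190, 117 and 107 in Trap endothelium, and its highest level elsewhere was 0.68 FPKM. Endothelium held 98.2% and 99.4% of their summed population means.

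The difference in log2 from the other 4 populations was 6.60 ± 0.17 for Sox7 (adjusted p = 3.03e-21) and 6.81 ± 0.14 for Sox18 (3.42e-23). Sox7 was higher in mTEC than in cTEC by 0.76 (adjusted p = 0.00561), beside 28.3% of all genes. This call was lost under quantile normalization (0.336), and no other pair of non-endothelial populations passed for Sox7. For Sox18, 0 of the 6 such pairs passed the test by limma (0 also at an unadjusted p under 0.05), with adjusted p from 0.424 to 0.866 and levels at or near 0.

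Of the factors shared with blood cells, Tal1, a basic helix-loop-helix factor of blood and endothelium, was at 38.0 and 19.9 FPKM in control and at 21.9, 17.0, 24.3 and 28.6 in Trap endothelium. In the 24 other libraries it reached at most 0.81 FPKM and was listed at 0 in 5, so that endothelium held 97.2% of its summed population means. Its difference in log2 was 4.47 ± 0.16 (adjusted p = 1.71e-18). Red cell precursors also use Tal1, and the erythroid marker sum was 10.6 FPKM in endothelial control 1, where Tal1 was highest, while the other 5 libraries of this population had 72.7 to 131. The sum of 6 mast cell markers ran the other way, at 8.19 FPKM in endothelial control 1 and 0 to 0.43 in the other 5. The part of red cell and mast cell transcripts in the Tal1 level was not tested.

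Lyl1, the close relative of TAL1, was low and variable throughout. Its endothelial levels were 7.07 and 2.71 FPKM in control and 0.83, 2.46, 0.98 and 5.92 with Trap, and the other 24 libraries ran from 0 to 2.30 FPKM. The groups overlap, since 2 Trap endothelial libraries lie below 1 FPKM. Endothelium exceeded the other 4 by 1.21 ± 0.28 (log2, adjusted p = 6.48e-04). Against CD140a-positive cells alone the difference was 0.99 (adjusted p = 0.0251) and against CD146-positive cells 1.12 (0.0139), and without endothelial control 1 these became 0.71 (0.176) and 0.83 (0.119). The lost calls also followed removal of endothelial Trap 4 (0.0525), CD140a control 1 (0.132) and CD140a Trap 2 (0.0518) for the first of them and of CD146 control 1 (0.115) for the second. With only the libraries compared, the adjusted p was 0.064 and 0.0531, and the first call was also lost after rescaling to TPM (0.0773) and with a pseudocount of 0.1 (0.0892). Endothelial control 1, where Lyl1 was highest, also had the highest mast cell marker sum of this population, 8.19 FPKM. The part of mast cell transcripts in the Lyl1 level was not tested. Whether the counting used strand is not given in the sources used here. Reads of Nfix, at 6.19 to 13.1 FPKM in endothelium, could therefore touch the 4 shared bases.

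Gata2, the GATA factor of endothelium and blood progenitors, was at 13.5 and 12.4 FPKM in control and at 18.1, 10.96, 10.98 and 11.2 in Trap endothelium. Elsewhere it reached 1.53 FPKM at most, and endothelium held 89.4% of its summed means. In mTEC, which had the second highest mean of Gata2 (0.73 FPKM), the mast cell markers summed to 3.36 to 14.6 FPKM. Their part in the Gata2 level was not tested. The difference of Gata2 in log2 was 3.34 ± 0.13 (adjusted p = 3.28e-17). Among the other populations it was lower in cTEC than in CD146-positive cells by 0.61 (adjusted p = 0.00463). It was also lower in cTEC than in mTEC by 0.68 (0.00197, beside 28.3% of all genes), a call lost under quantile normalization (0.401). For Gata2, CD140a-positive cells minus cTEC gave 0.26 (0.241), and all of these levels were 0 to 1.53 FPKM. CD146-positive cells minus mTEC did not pass in this fit (-0.07, adjusted p = 0.76), but the sign turned under TPM, upper quartile scaling and without mTEC Trap 4, and under quantile normalization the difference was 0.43 with a call (0.0241). CD140a-positive cells minus mTEC gave -0.42 (0.0368), and this call was lost under upper quartile scaling (0.0916), turned to 0.12 under quantile normalization (0.562), and was lost without any 1 of 7 libraries (CD140a controls 1 and 2 and Trap 1, 2 and 4, mTEC control 2 and Trap 4), with adjusted p up to 0.129.

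Mef2c was the only member not highest in endothelium. Its level was 30.05 ± 2.67 FPKM in CD146-positive libraries (SD, n = 6; range 27.4 to 34.5) and 21.7 ± 4.93 in endothelium, with 23.0 and 25.7 in control and 17.1, 28.9, 17.2 and 18.4 in Trap libraries. CD140a-positive cells had 1.40 to 3.61, cTEC 0.40 to 0.99 and mTEC 0.54 to 1.32 FPKM. The CD146-positive libraries also had the highest sum of mural markers, 4813 to 6256 FPKM, against 173 to 215 in endothelium.

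The difference of endothelium minus CD146-positive cells for Mef2c was -0.44 ± 0.18 (log2, adjusted p = 0.0511), just short of the threshold. It passed in 6 of 12 alternatives: with only the libraries of these populations (adjusted p = 0.0297), under quantile normalization (0.0235), with no variance trend (0.0434), with a filter of 1 FPKM in at least 6 libraries (0.0483) and under both replicate blocks (0.0487 and 0.0419). It also passed without endothelial Trap 2 (-0.53, 0.013) and, at the same -0.44, without CD140a Trap 2 (0.0295) or Trap 4 (0.0466) or mTEC control 1 (0.045), control 2 (0.0452), Trap 1 (0.0494) or Trap 2 (0.0499). Over all single libraries left out the adjusted p ran from 0.013 to 0.189. Both populations exceeded CD140a-positive cells, CD146-positive cells by 3.32 (2.96e-14) and endothelium by 2.88 (1.77e-13), and these in turn exceeded cTEC by 0.83 (2.79e-04) and mTEC by 0.72 (9.34e-04). Between cTEC and mTEC the difference was -0.11 (adjusted p = 0.658), and under quantile normalization it turned to 0.43 with a call (0.046). Its sign also turned without mTEC control 2 (0.0367).

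Over the 36 comparisons of a member in endothelium with a single other population, 35 were higher, beside 17.9% over all genes, and the remaining 1 was Mef2c against CD146-positive cells. Over the 54 comparisons among the other 4 populations, 20 passed in either direction, beside 45.1% over all genes. Ets1 and Mef2c gave 9 of those 20, and Tal1, Lyl1 and Sox18 gave 0 of 18 by limma, and 0 at an unadjusted p under 0.05.

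Profiles were compared after each gene was centred on its own mean over the 30 libraries, and likeness was the mean absolute difference in log2. By this description Sox18 was nearest to Adgrl4 (0.19), Kdr and Pecam1, Sox7 to Robo4 (0.34), Rasgrp3 and Kdr, Tal1 to Arhgef15 (0.20), Klhl4 and Sox17, and Gata2 to Notch4 (0.29), Nr5a2 and Grrp1. Erg was nearest to Cyyr1 (0.41), Vwf and Upp1, Fli1 to Prex2 (0.39), Ptprm and Mmrn2, and Ets1 to Kitl (0.39), Fmnl3 and Dgkh. Mef2c was nearest to Adgre5 (0.38), Gja5 and Itga1, genes that also reached 24.6 FPKM or more outside endothelium. The nearest genes to Lyl1 were Phf7 (0.38), Kcng2 and Ttc21a, at endothelial means of 1.55 to 5.61 FPKM. Among the members, the nearest pairs were Sox7 with Sox18 (0.37) and Tal1 with Gata2 (0.39).

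None of the 9 factors passed the test for a Trap change in endothelium by limma (0 of 9), where 1.74% of all 16425 genes passed. At an unadjusted p under 0.05 there were also 0 of 9, beside 14.9% of all genes. For no member were the Trap and control libraries fully apart, which was the case for 14.8% of all genes. Fewer cells of a type and less RNA per cell cannot be told apart in bulk samples. The members' summed level in endothelium was 578 and 589 FPKM in control and 548 to 615 FPKM with Trap.

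The Trap changes in log2, with 95% confidence intervals, were 0.12 (-0.91 to 1.15) for Erg, -0.02 (-0.57 to 0.54) for Fli1 and 0.17 (-0.28 to 0.63) for Ets1. For the SOX members they were -0.06 (-0.68 to 0.57) for Sox7 and 0.03 (-0.49 to 0.56) for Sox18. Each of these 5 intervals includes 0. Gata2 had -0.04 (-0.54 to 0.45), Tal1 -0.27 (-0.85 to 0.30), Mef2c -0.28 (-0.79 to 0.23) and Lyl1 -0.84 (-1.87 to 0.18).

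A fit on the 6 endothelial libraries alone gave narrower intervals for Erg (-0.29 to 0.52) and Sox7 (-0.41 to 0.30) and a wider one for Lyl1 (-2.22 to 0.54). In that fit no gene of the table passed in either direction (0 higher and 0 lower), so it holds no call against which the members can be read. The sign of the change was not stable for Fli1, Tal1, Sox7, Sox18 and Gata2, which changed side of 0 under another scaling or without 1 endothelial library. For Tal1 it turned from -0.27 to 0.18 without endothelial control 1. The change of Lyl1 was -0.28 without endothelial control 1 and -1.40 without control 2, and that of Mef2c was -0.20 without control 2 and -0.45 without Trap 2.

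**Figure D3:**
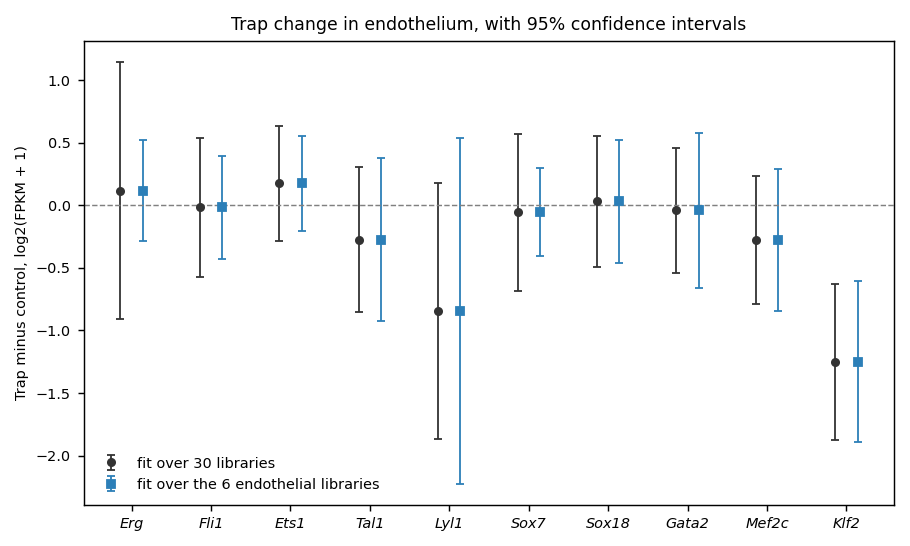
Trap minus control in endothelium for the 9 factors and Klf2, as log2(FPKM + 1) differences with 95% confidence intervals, from the fit over 30 libraries (circles) and over the 6 endothelial libraries (squares). The 9 factors' intervals all include 0, and those of Klf2, at -1.25, do not in either fit.

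Trap libraries of endothelium were uneven for 2 members. Gata2 was at 18.1 FPKM in Trap 1 against 10.96 to 11.2 in the other 3, and Mef2c at 28.9 in Trap 2 against 17.1 to 18.4. Sox18 (190 FPKM) and Ets1 (68.8) also peaked in Trap 2, while Erg (82.1), Sox7 (123), Tal1 (17.0) and Gata2 (10.96) were lowest there. Trap 2 of endothelium also had the fewest genes at 1 FPKM of all libraries, 10298. That library had the highest sums of cTEC markers (120 FPKM) and of mTEC markers (216 FPKM, where the other 5 endothelial libraries had 26.02 to 95.1). Its lymphatic marker sum was also the highest, at 296 FPKM against 48.3 to 157 in the other 5, with Ccl21a a member of both the lymphatic and the mTEC list. Mef2c and Sox18 themselves were at or under 1.32 FPKM in the cTEC and mTEC libraries, and Ets1 was at 28.8 to 42.6 in cTEC and 4.86 to 10.5 in mTEC. The part of epithelial and lymphatic transcripts in these peaks was not tested.

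In the other 4 populations 0 of 36 member levels passed the test for Trap by limma, beside 0.0928% over all genes, and 2 of the 36 had an unadjusted p under 0.05, both in CD140a-positive cells, where 3.71% of all genes had one (5% in CD146-positive cells, 2.28% in cTEC and 7.49% in mTEC). These were Sox7, at 0.11 and 0.20 FPKM in control and 1.72, 0.62, 1.20 and 0.74 with Trap (0.81 ± 0.30 in log2, adjusted p = 1 by limma), and Ets1, at 5.97 and 7.07 in control and 13.9, 11.98, 6.54 and 7.22 with Trap (0.48 ± 0.22, adjusted p = 1 by limma). The Sox7 libraries did not overlap and the Ets1 libraries did. The thymocyte sum in CD140a-positive cells, again without Thy1, was 3.70 and 5.89 FPKM in control and 6.36 to 10.6 with Trap, highest in Trap 1 like Ets1, and its part was not tested.

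Libraries also did not overlap for Fli1 and Ets1 in cTEC, both higher with Trap. Fli1 was at 0.77 and 1.23 FPKM in control and at 1.68, 1.54, 2.05 and 1.99 with Trap (0.50 ± 0.27 in log2), and Ets1 was 0.39 ± 0.22 higher, from the values given above. The thymocyte sum in cTEC was 59.3 and 92.9 in control and 91.8, 96.3, 141 and 148 FPKM with Trap, so that markers of cells that use Fli1 and Ets1 were higher in 3 of the 4 Trap libraries than in both controls. Within the Trap libraries, Ets1 was highest in Trap 1 (42.6 FPKM), where the thymocyte sum was lowest (91.8). Fli1 was highest in Trap 3 (2.05 FPKM), where the sum was 141. The part of thymocyte transcripts in these differences was not tested. The remaining separated groups were Fli1 in mTEC (0.12 and 0.10 against 0.15 to 1.21 FPKM), Gata2 in CD140a-positive cells (0.50 and 0.41 against 0 to 0.21) and Sox18 in cTEC (0.20 and 0.24 against 0 to 0.07), all near 0. By population, 2 of 9 members were apart in CD140a-positive cells (11.9% of all genes), 0 of 9 in CD146-positive cells (12.6%), 3 of 9 in cTEC (13.5%) and 1 of 9 in mTEC (13.5%).

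The Trap change in endothelium was also compared with the Trap change averaged over the 4 other populations. This difference passed by limma for 0 of 9 members, beside 0.28% of all genes, and 0 of 9 had an unadjusted p under 0.05, beside 11% of all genes. Its members' median was -0.15 in log2, beside -0.02 over all genes.

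The wider families were read from lists of related genes. Of 26 family relatives in the ETS, SOXF, GATA, MEF2 and SCL families, 22 passed the filter on low values, 13 were higher in endothelium than in the other 4 populations (17.7% of all genes) and 4 were lower (34.5% of all genes), with a median of 0.47 beside 4.47 for the 9 factors. Those of smallest p were Sox17, the third SOX factor of the F group (4.65 in log2), Elk3, an ETS factor downstream of MAP kinases (2.50), Mef2a (1.08) and Ets2 (1.39). Sox17 was at 15.9 to 57.1 FPKM in endothelium and at most at 0.39 elsewhere. Ets2, the chromosomal neighbour of Erg, was at 113 to 158 FPKM in endothelium and also at 82.8 to 110 in cTEC, so these neighbours differed in their spread over populations. Among 4 ETS factors known from epithelium, 2 passed the filter and both were lower in endothelium: Ehf (-2.26), at 40.6 to 75.4 FPKM in mTEC and 0 to 0.13 in endothelium, and Elf3 (-1.28).

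Of 8 partners that form complexes with TAL1, LYL1 or GATA2, 5 were higher in endothelium than in the mean of the other 4 populations (17.7% of all genes). In the other direction, 1 was lower (34.5% of all genes). Among the 5, Cbfa2t3 averaged 8.13 FPKM in endothelium and 21.0 in CD146-positive cells. Tcf4, an E protein that pairs with TAL1, was 2.79 higher, Tcf3, another E protein, 1.32 higher, and Lmo2, the bridging LIM protein, 3.74 higher at 25.3 to 48.9 FPKM. Runx1, the blood stem cell factor, was 2.28 lower (log2), with 2.56 to 5.02 FPKM in endothelium and 38.8 to 60.4 in CD146-positive cells. The scaffold Ldb1 differed by 0.04 (adjusted p = 0.853).

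Among 20 other vascular factors, 15 were higher and 0 lower in endothelium than in the mean of the other 4 populations (17.7% and 34.5% of all genes). The smallest p were those of Epas1 (4.56), a hypoxia-inducible factor, Bcl6b (5.99), Meox2 (3.37) and Foxo1 (2.01). Some of the 15 had a higher mean in another population. Klf2 in endothelium minus CD140a-positive cells was -0.87 (log2, adjusted p = 0.0016 by limma). Nr2f2 averaged 13.2 FPKM in endothelium and 48.2 in CD146-positive cells, and Hey1 43.4 and, in cTEC, 50.8. All 24 genes known as targets of these factors were higher in endothelium than in the mean of the other 4 populations, with a median of 4.64. Among the targets, p was smallest for Aplnr (7.34), Robo4 (6.28), Cdh5 (8.52) and Kdr (6.60). The 24 include all 12 endothelial markers whose sum is given above, so their direction is not independent evidence.

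**Figure D4:**
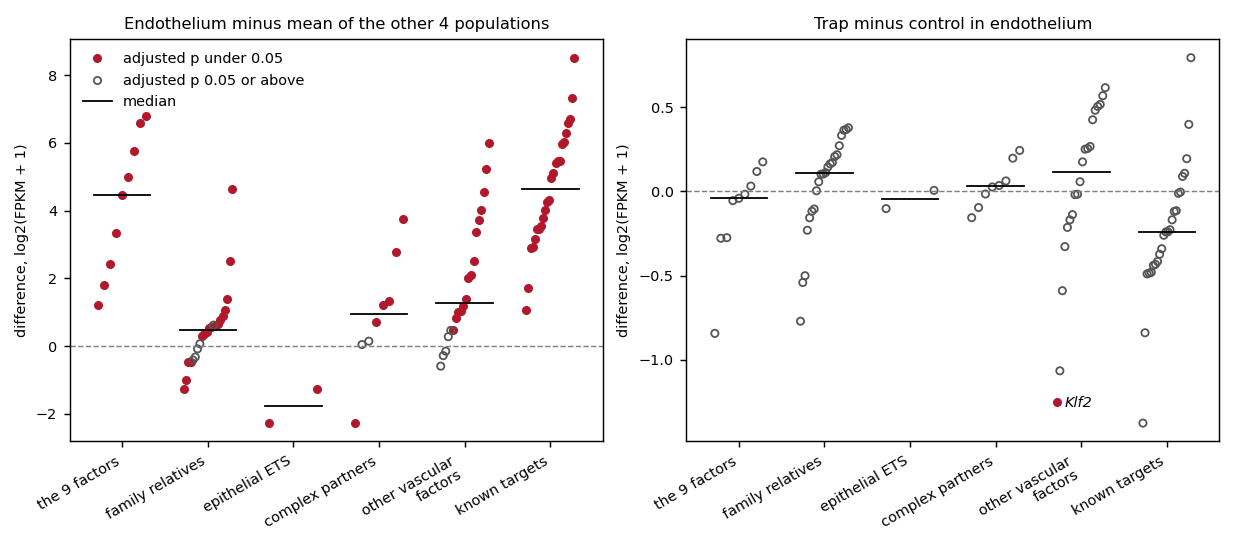
Differences on the log2(FPKM + 1) scale for each gene of the 9 factors and of 5 related lists, left for endothelium minus the mean of the other 4 populations and right for Trap minus control in endothelium. Filled points have an adjusted p under 0.05 and bars are list medians; on the left the factors and the 24 known targets all lie above 0, and on the right the sole filled point is Klf2 at -1.25.

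With Trap, Klf2 alone passed in endothelium among these related lists, beside 1.74% of all genes, so 1 call is near that share. Klf2, a factor that responds to blood flow, was at 74.3 and 47.1 FPKM in control and at 24.9, 24.6, 34.1 and 16.7 with Trap. All 4 Trap libraries thus lay below both controls, which held for 9.48% of all genes. The change in log2 was -1.25 ± 0.30 (SE, adjusted p = 0.0311). The call was lost after rescaling to TPM (0.0538), after quantile normalization (0.0555), with 1 weight per population (0.276), with only the endothelial libraries (0.475), with the replicate number as a fixed block (0.0563), and without endothelial control 1 (-0.93, 0.333) or Trap 4 (-1.08, 0.0736). The gap between its Trap change in endothelium and that in the 4 other populations was -1.02 (adjusted p = 0.208).

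Of the 22 family relatives, 0 passed for Trap in endothelium by limma, and the smallest adjusted p was 0.163, for Elf1 (0.37 in log2), followed by Etv1 (-0.77, 0.171), Elf4 (0.36, 0.411) and Etv3 (0.33, 0.478). Of the 8 partners 0 passed, with Runx1 (0.20), Zfpm1 (0.24), Lmo2 (-0.16) and Tcf4 (0.06) at the smallest p and adjusted p of 0.755 or more. The epithelial ETS genes Ehf and Elf3 had -0.10 and 0.01. After Klf2, the vascular factors of smallest p were Tcf15 (-1.06, 0.26), Meox2 (0.42, 0.379) and Foxc1 (0.50, 0.466).

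Of the 24 known targets, 0 passed for Trap by limma, beside 1.74% of all genes. Among these targets 19 had a value below 0, with a median of -0.24 beside -0.02 over all genes. The share of all genes below 0 is not given here, so this count is not read as particular to the targets. Apln, a peptide ligand of sprouting endothelium, was at 5.48 to 16.6 FPKM with Trap and 21.6 to 37.2 in control (-1.37 in log2, adjusted p = 0.106). Dll4, the Notch ligand of arteries and tip cells, was at 10.1 to 22.4 against 25.3 to 30.9 (-0.84, 0.201), and Vwf, the clotting protein of larger vessels, at 75.5 to 118 against 43.8 to 62.4 (0.79, 0.114). Efnb2 had -0.34 (0.264). The 9 factors had a median Trap change of -0.04 in log2.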

How the data were processed

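Per the labels' protocols, RNA from sorted cells was amplified as cDNA (Ovation RNA-Seq System V2) and sequenced in pairs on a HiSeq3000. The authors deposited FPKM values for 18847 protein-coding genes. Per the submitters' processing notes, bcl2fastq 2.17, STAR and DESeq2 were used with the builds GRCm38 and mm10. The versions and roles of STAR and DESeq2, the annotation and the counting program were not given in the sources used here. Steps between low FPKM values were searched for whole reads, but the best score was 0.443, where 1 means all whole multiples, so the depth is unknown. Coordinates came from GENCODE M21, which held 18836 of the identifiers, and 27 symbols turned into dates were restored. No libraries were identical (0 pairs), and all 30 were used.

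Values were analysed in R 4.3.3 with limma 3.58.1 on log2(FPKM + 1), over 16425 genes at 1 FPKM or more in at least 2 libraries. All 9 members passed this filter. A mean was fitted for each of 10 groups with a variance trend, and 17 contrasts were tested two-sided. The fit was tested on simulated data. Named genes were all members and the 3 genes of nearest profile to each member. From each related list, up to 4 genes of smallest p were named for endothelium and for Trap in endothelium. Any such gene that passed for Trap there was named too. Other genes were named after their values were seen (Ldb1, Nr2f2, Hey1 and Cbfa2t3). Members and lists were chosen with earlier results of these data known. Alternatives were pseudocounts of 0.1 and 0.5, no filter or 1 FPKM in at least 6 libraries, TPM, upper quartile and quantile scaling, 1 weight per population, no variance trend, the replicate block, only the libraries compared, and each library left out.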

Additional observations from a re-analysis of the deposited data

Results flagged for a closer look

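In 10 of 45 groups of 4 Trap libraries (9 members in 5 populations), 1 library stood far from the other 3 by Dixon's gap test at the 95% level. Chance flags about 1 in 20 groups of normally distributed values, a rate that may not hold for levels near 0. The share flagged over all genes was not computed, so the count is not read as particular to these factors. In endothelium these were Gata2 in Trap 1, at 18.11 FPKM against 10.96 to 11.17, and Mef2c in Trap 2, at 28.86 against 17.14 to 18.37. Erg stood apart in Trap 2 of both mesenchymal populations, at 1.38 FPKM in CD140a-positive cells against 0.04 to 0.07 and at 3.81 in CD146-positive cells against 0.21 to 0.49. Trap 3 stood apart for Tal1 in cTEC (0.44 against 0 to 0.02) and mTEC (0.81 against 0 to 0.09), for Gata2 in CD140a-positive cells (0.21 against 0) and cTEC (0.21 against 0 to 0.02), and for Sox18 in CD140a-positive cells (0.18 against 0 to 0.03). Lyl1 in mTEC Trap 4 was at 1.35 against 0.41 to 0.55. Outside endothelium all of these levels lie under 4 FPKM.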

How the results depend on the processing

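All 6 counts of members kept their value to within 1.5 times in all 70 alternative fits and all 180 fits without 1 library. These counts were 9 and 35 for endothelium, 20 among the other populations, and 0 for each of 3 Trap questions. Over the alternative fits the count of 35 ran from 33 to 35 and that of 20 from 16 to 24, while the others stayed the same. No fit with only the libraries compared exists for the 2 contrasts that use every population. Signs turned as follows, in log2. With TPM, Ets1 in CD146-positive cells minus cTEC was 0.0135 and Gata2 in CD146-positive cells minus mTEC 0.0534, and Trap in endothelium was 0.032 for Fli1 and 0.0027 for Gata2. With upper quartile scaling, Gata2 in CD146-positive cells minus mTEC was 0.0015, and Trap in endothelium was 0.0467 for Fli1, 0.0092 for Sox7 and 0.0187 for Gata2. With quantile normalization, Gata2 was 0.12 for CD140a-positive cells minus mTEC and 0.43 for CD146-positive cells minus mTEC (adjusted p = 0.0241), Mef2c 0.43 for cTEC minus mTEC (0.046), Ets1 0.0079 for CD146-positive cells minus cTEC, and Trap in endothelium 0.0085 for Fli1 and 0.0016 for Gata2. The cause was not tested. Quantile normalization moved the median of all genes by 0.13 for endothelium against the other 4, with 3643 genes higher and 4368 lower in place of 2900 and 5661.

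Leaving out 1 library at a time, Trap in endothelium ran from -0.30 to 0.26 for Fli1, -0.73 to 0.18 for Tal1, -0.14 to 0.0265 for Sox7, -0.13 to 0.14 for Sox18 and -0.21 to 0.0172 for Gata2. In the same way Gata2 in CD146-positive cells minus mTEC ran from -0.13 to 0.0174 and Mef2c in cTEC minus mTEC from -0.26 to 0.0367.

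With the replicate number as a fixed replicate block, Fli1 for Trap in endothelium was 0.0461, and no count of members moved. Among single results, Mef2c for endothelium minus CD146-positive cells passed with it (adjusted p = 0.0419) and with the block of treatment and number (0.0487), and Klf2 for Trap in endothelium was lost with the fixed one (0.0563). Same-numbered Trap libraries of different populations had a median correlation of residuals of 0.0225 (1 of 40 pairs over 0.1). For different numbers it was -0.00765 (0 of 120 over 0.1), so same numbers were slightly more alike. This likeness was weak and the labels do not state shared animals, so the numbers were not taken as pairs. Both replicate blocks stand as alternatives. For Trap in endothelium, 53 genes higher and 233 lower in all became 50 and 126 with quantile normalization, 76 and 189 with TPM, 0 and 13 with 1 weight per population, and 0 and 0 with only the endothelial libraries. Unknown depth leaves the precision of levels near 0 FPKM unstated, and 2 control libraries limit each Trap comparison.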
